A study of Mus musculus with 6 samples.

Results

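Frame-keeping cassette exons are internal exons that are either included in an mRNA or skipped, and whose length is a multiple of 3, so that including or skipping one leaves the reading frame of the codons after it in place. They were taken here as the skipped-exon events of the deposited splicing table whose exon is 28 to 300 bases long and divisible by 3. The rule selected 12596 of 45595 events, or of 33100 skipped-exon events, in 5819 genes. It uses length alone and no measured value. The events describe 10827 distinct exons, because 1456 exons were listed in more than 1 event, with other neighbouring exons, and 1 exon in 9.

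The RNA was total RNA of Neuro-2a (N2a), an established line of mouse neuroblastoma cells. By their labels 3 of the 6 libraries are wild type and 3 carry a knockout of hnRNP DL, in the same line and with no treatment named. How the knockout was made, whether it is 1 clone and whether libraries of a group were grown apart are not stated, and p-values here therefore reflect the spread among libraries alone. The series asks how alternative splicing differs between knockout and control cells. Its table splits the libraries into 2 sets of 3 without naming the knockout, so they are called set 1 and set 2 and no genotype is attached to either.

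A cassette exon is defined by the splice sites at its ends and by regulatory proteins bound in it and in the introns around it. The heterogeneous nuclear ribonucleoproteins (hnRNPs) are a large group of such proteins. hnRNP DL, hnRNP D (AUF1) and hnRNP A/B are paralogues with a pair of RNA recognition motifs and a glycine-rich and tyrosine-rich tail, and hnRNP D and its relatives are known to bind AU-rich RNA and sites that hold UUAG. A skipped exon that keeps the frame removes or adds a short stretch of amino acids. One that shifts the frame usually brings in an early stop codon, which can send the mRNA to nonsense-mediated decay. Neurons are known for using many short frame-keeping exons in cytoskeletal, membrane traffic and synaptic proteins.

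The exons below are coding ones from the comparison of the sets, chosen with its results known and by no single ranking. Their sequences read 5′ to 3′ on the strand of the gene, from GENCODE transcripts of build GRCm38 (mm10). They are printed so that a reader can see how little sequence such an exon holds. Capitals mark the last 2 bases, which lie against the 5′ splice site of the intron that follows and which are AG in most exons. Clstn1 is at chr4:149641658-149641714 (plus strand), Fbxw11 at chr11:32708188-32708250 (plus), Ubr4 at chr4:139432482-139432514 (plus), Git2 at chr5:114737348-114737437 (minus) and St7 at chr6:17850357-17850425 (plus). Myo18a is at chr11:77854678-77854722 (plus), Epb41l2 at chr10:25501578-25501631 (plus), Spag9 at chr11:94113263-94113301 (plus), Cttn at chr7:144450978-144451088 (minus) and Numb at chr12:83825259-83825291 (minus).
Clstn1 exon: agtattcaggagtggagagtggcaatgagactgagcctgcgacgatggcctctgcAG
Fbxw11 exon: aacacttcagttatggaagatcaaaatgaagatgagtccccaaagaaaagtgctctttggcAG
Ubr4 exon: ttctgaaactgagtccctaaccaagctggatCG
Git2 exon: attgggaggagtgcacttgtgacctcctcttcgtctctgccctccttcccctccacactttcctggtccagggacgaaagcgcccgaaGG
St7 exon: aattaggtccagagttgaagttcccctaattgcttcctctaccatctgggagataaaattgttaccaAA
Myo18a exon: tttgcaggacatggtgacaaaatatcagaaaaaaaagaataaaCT
Epb41l2 exon: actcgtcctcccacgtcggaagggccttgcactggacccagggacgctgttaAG
Spag9 exon: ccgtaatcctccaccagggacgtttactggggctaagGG
Cttn exon: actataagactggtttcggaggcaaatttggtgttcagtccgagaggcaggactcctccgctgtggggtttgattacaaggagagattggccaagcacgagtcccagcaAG
Numb exon: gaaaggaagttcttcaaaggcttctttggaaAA
These exons ended in AG in Clstn1, Fbxw11, Epb41l2 and Cttn, and in other letters in the other genes. Of the frame-keeping exons with a mean of 20 or more junction reads per library, 54.6% ended in AG, and 51.9% of the frame-shifting exons of 28 to 300 bases did. Among frame-keeping exons the share was 54.0% for those included at a mean level of 0.95 or more and 56.6% for those with a level between 0.10 and 0.90. These shares lie within a few percentage points of each other.

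A second group of exons is printed for what they share with the protein that was knocked out. They are coding in at least 1 transcript and encode part of the tail of Hnrnpd (chr5:99963731-99963877, minus strand), of Hnrnpab (chr11:51601750-51601890, minus) and of Hnrnpdl itself (chr5:100036481-100036651, minus). Here capitals mark the tyrosine codons (TAT or TAC) that lie in the reading frame.
Hnrnpd exon: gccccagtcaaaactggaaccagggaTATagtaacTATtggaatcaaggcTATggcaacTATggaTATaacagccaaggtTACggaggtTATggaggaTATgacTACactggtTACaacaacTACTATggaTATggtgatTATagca
Hnrnpab exon: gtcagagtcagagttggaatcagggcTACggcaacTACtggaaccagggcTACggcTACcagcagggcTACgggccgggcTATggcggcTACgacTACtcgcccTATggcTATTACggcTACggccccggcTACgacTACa
Hnrnpdl exon: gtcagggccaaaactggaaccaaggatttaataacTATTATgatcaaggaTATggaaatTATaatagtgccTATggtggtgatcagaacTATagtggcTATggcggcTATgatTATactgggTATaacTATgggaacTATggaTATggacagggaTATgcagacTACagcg
The Hnrnpd exon held 14 tyrosine codons among 48 whole codons, the Hnrnpab exon 14 among 46 and the Hnrnpdl exon 15 among 56. All 3 exons split a codon in the same way, with its first base in the exon before. Skipping any of them removes part of the tyrosine-rich tail and keeps the frame of what follows. Their inclusion levels are given further on.

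The inclusion level is the share of transcripts that hold the exon, from 0 to 1, computed from the reads on the junctions of the 2 forms after dividing each count by the length of its form. Junction reads on frame-keeping exons came to between 4004251 and 5430689 per library, where 1 read may serve more than 1 event. Skipping reads made up 7.71% to 8.33% of them. Of the 12596 events, 10937 (86.8%) had a mean count of 20 or more, in 9666 exons of 5180 genes, and the 1659 others were left out of all shares and medians of levels. Each of the 10937 events had at least 1 read of each form, so they hold exons seen skipped at least once and are not a list of all internal exons. The 1659 others were not checked for this. The table gives splicing events and no gene levels. Of the markers of sympathetic neuroblasts and neurons, Isl1, Dbh, Elavl4 and Chga had an event, each at a mean count of 20 or more. Of those of glia and endothelial cells, Mbp and Pecam1 had events, none at that count. The defining genes Hand2, Th and Gfap had none, so these markers are a weak check of the cell type.

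Most frame-keeping exons were nearly always included. By exon, with the best covered event standing for each, 7026 of 9666 (72.7%) had a mean level of 0.95 or more over the 6 libraries. A further 408 lay between 0.90 and 0.95, 1332 (13.8%) lay between 0.10 and 0.90, called intermediate here, and 900 (9.31%) at 0.10 or less. Well included exons were coding in 92.8% of cases, intermediate ones in 74.3% and the least included ones in 42.1%, where 19.3% were UTR, 24.9% partly coding and 13.6% in noncoding transcripts. Median length was 117, 96 and 90 bases in these classes.

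**Figure D1:**
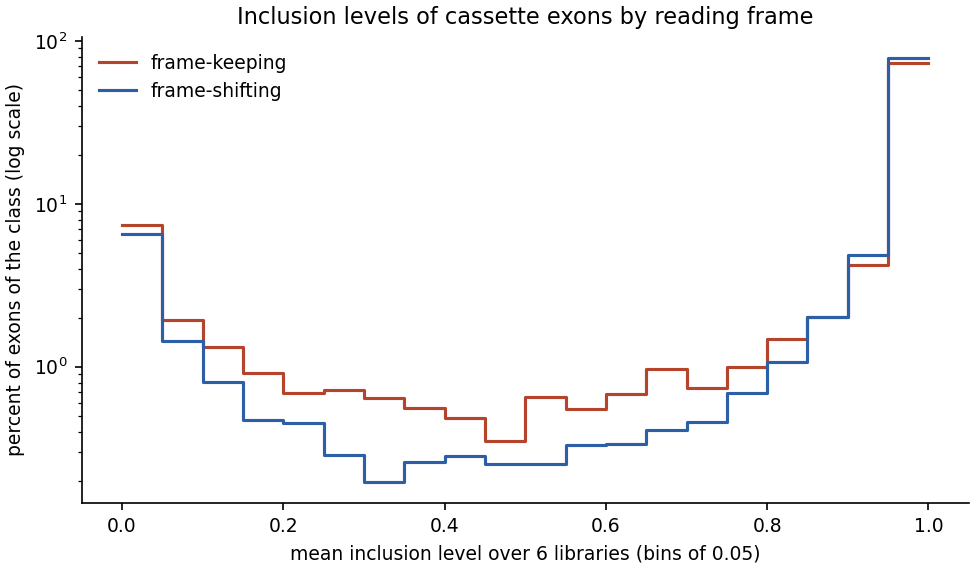
Mean inclusion level over the 6 libraries (x axis, bins of 0.05) against the percent of exons of each class on a log scale (y axis), for 9666 frame-keeping and 14210 frame-shifting exons of 28 to 300 bases. Both classes peak at 0.95 or more, with 72.7% and 78.6% of their exons, and the frame-keeping line lies above the other across most of the middle.

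Frame-shifting exons of the same length range held fewer intermediate levels. Of 14210 such exons, 1216 (8.56%) were intermediate, and 50.6% of those were coding, against 74.3% of the intermediate frame-keeping exons. Per library and by event, 14.1%, 14.1% and 14.4% of frame-keeping exons were intermediate in set 1, and 14.3%, 14.7% and 15.1% in set 2. For frame-shifting exons the shares were 9.63%, 9.32% and 9.49% in set 1 and 9.73%, 10.1% and 10.6% in set 2. The difference between the classes was 4.50 to 4.86 percentage points and had the same sign in 6 of 6 libraries (mean 4.63, exact sign-flip test over libraries, two-sided, p = 0.03125, the smallest that 6 libraries can give). The libraries measure the same exons, so this p speaks only of the spread between libraries.

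Short frame-keeping exons were intermediate most often. The share was 24.5% at 28 to 60 bases, 14.7% at 61 to 90, 12.9% at 91 to 120, 10.1% at 121 to 150, 10.1% at 151 to 200 and 12.7% at 201 to 300. In frame-shifting exons of the same lengths it was 11.5%, 8.54%, 8.09%, 6.76%, 8.68% and 10.5%. The share was thus higher in frame-keeping exons in each bin, and the gap was widest in the shortest. At the lower edge of the length range, 20 of 66 exons of 30 bases, the shortest possible member, were intermediate (30.3%), and 24 of 56 exons of 27 bases just outside it (42.9%). At the upper edge there were 4 exons of 300 bases and 7 of 303.

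**Figure D2:**
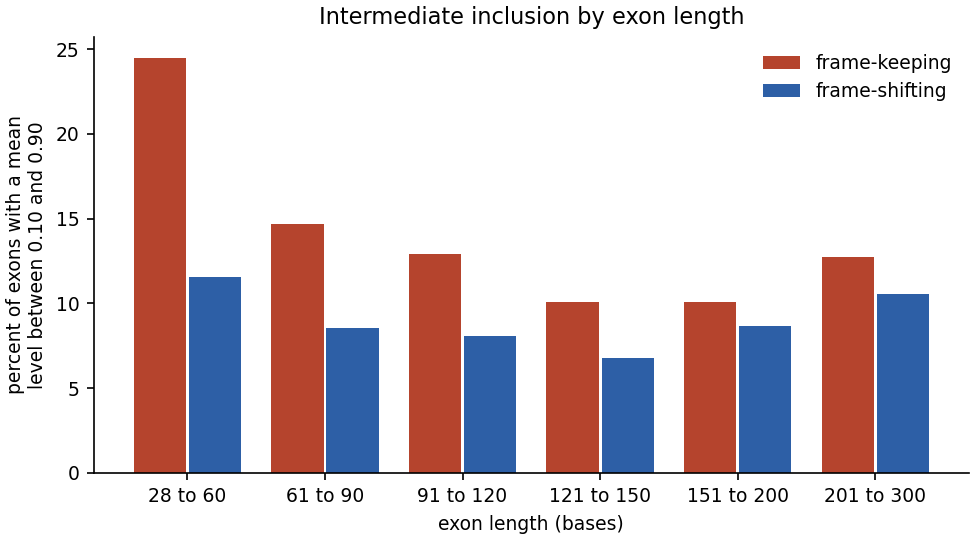
Exon length in bases (x axis) against the percent of exons with a mean inclusion level between 0.10 and 0.90 (y axis, from 0), in frame-keeping and frame-shifting exons with a mean count of 20 or more. Frame-keeping bars are the taller ones in all bins, with 24.5% against 11.5% at 28 to 60 bases.

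The place of the exon in the codon is given by level class as a description, with no test. Phase is the number of bases of a split codon that lie in the exon before, so an exon of phase 0 starts with a whole codon. Among coding frame-keeping exons with a phase, 59.8% of those at 0.95 or more had phase 0, 25.6% phase 1 and 14.6% phase 2. Among intermediate ones 46.7% had phase 0, 37.4% phase 1 and 15.9% phase 2. In coding frame-shifting exons the shares of phase 0 were close to each other in the same level classes, at 38.9% and 39.3%.

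Skipping rarely made a stop codon at the new junction. For 8122 coding frame-keeping exons the event's neighbours sit beside it in 1 annotated transcript, so the joined sequence could be read. A stop codon across the junction arose in 42 (0.517%). Exons of phase 0, 57.1% of the frame-keeping exons with a phase and the mean count, split no codon. They cannot give such a stop but are counted in the 8122. With the mean count, 12.6% of 7439 exons without a stop were intermediate, beside 2 of 41 with a stop. One of the 2 was a 102-base exon of Ercc8 (chr13:108166390-108166491), a gene of transcription-coupled DNA repair, at a mean level of 0.521. The other was a 72-base exon of Osgepl1 (chr1:53321496-53321567), a gene of mitochondrial tRNA modification, at 0.753. Skipping a frame-keeping exon takes out 10 to 100 amino acids, with a median of 37.

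The comparison of the sets began with single values per library. The median level of frame-keeping exons was 0.997, 1 and 1 in set 1 and 0.996, 0.997 and 0.996 in set 2. Set 1 lay above set 2 in all libraries, by 0.00311 in the mean of the medians (exact permutation test, two-sided, p = 0.1, the smallest that 3 against 3 can give). The share of intermediate exons was lower in set 1 than in set 2, with a difference of -0.474 percentage points, and the sets overlapped (exact permutation test, p = 0.2). The highest share, 15.1%, was in library 3 of set 2, which had the fewest reads, and depth was not tested as a part of it. The median level of the intermediate exons was 0.618, 0.614 and 0.606 in set 1 and 0.622, 0.596 and 0.567 in set 2, again with overlap (exact permutation test, p = 0.4).

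In the authors' deposited table, 95 frame-keeping events in 87 genes changed by 0.10 or more in level at an adjusted p under 0.05, 0.754% of 12596, beside 0.645% of all events in the table and 0.607% of frame-shifting exons. Of these, 61 were higher in set 1 (0.484%, beside 0.357% of all events) and 34 lower (0.270%, beside 0.287%). Among frame-shifting exons 72 were higher (0.387%) and 41 lower (0.220%), so more higher than lower calls were found there too. A mean count of 20 or more left 53 of the 95 calls of the authors' deposited table, 38 higher and 15 lower. That is 0.485% of the frame-keeping events with this count, and the share over all events with it was not computed. In 39 of the 53 there was no overlap between the sets. The 53 were called for a difference between these same libraries, so the lack of overlap is no separate support. Over all 10937 events with that count, 366 did not overlap and were higher in set 1 (3.35%, beside 3.23% of all events). A further 206 did not overlap and were lower (1.88%, beside 2.7%). For frame-shifting exons these shares were 3.05% and 1.58%. The 38 higher events had a median level of 0.868 in set 1 and 0.674 in set 2 and a median length of 88.5 bases. The 15 lower ones had medians of 0.815 and 0.925 and a length of 138 bases. Their mean counts ran from 20.8 to 684 reads per library, with medians of 56.6 and 60.5, so most rest on few reads.

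The moderated quasi-binomial test, which weighs the difference against the spread between libraries, could be run on 3720 of the frame-keeping events (3413 exons). The 7217 other events with the mean count had fewer than 10 reads of their rarer form. It called 2 frame-keeping events with a change of 0.10 or more, 0.0538% of those tested, beside 0.0623% of all 17654 events tested. With no minimum change it called 6 (0.161%), beside 0.181% of all. An unadjusted p under 0.05 was found for 319 frame-keeping events (8.58%), beside 7.0% of all events tested. The median difference of the tested frame-keeping events was 0.00202, with 2059 higher and 1661 lower in set 1, beside a median of 0.00187 over all 8944 tested skipped exons, with 4984 higher and 3960 lower. Over all events tested the median was 0.000462, with 9055 higher and 8599 lower. These shares lie near those of all events. Limma on logit levels called none, with 255 at an unadjusted p under 0.05. A form of the quasi-binomial test that uses an event's own spread where it is larger, chosen after the data were seen, called 1 with no minimum change (Clstn1) and 0 with a change of 0.10 or more, with 164 at an unadjusted p under 0.05.

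**Figure D3:**
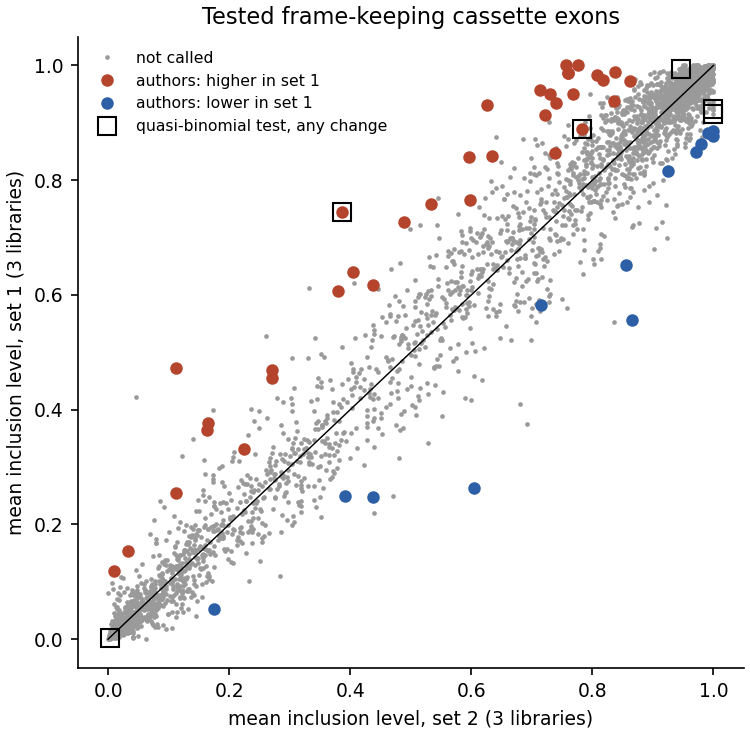
Mean inclusion level in set 2 (x axis) against set 1 (y axis), 3 libraries each, for the 3720 tested frame-keeping events. Points above the line are higher in set 1. Filled circles are the 35 higher and 13 lower calls of the authors' deposited table among them, and squares the 6 events of the quasi-binomial test, 2 of which are also called in the authors' deposited table with a change of 0.10 or more.

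Clstn1 was the only 1 of the 6 that was also called without each library in turn. It encodes calsyntenin 1, a membrane protein that links kinesin to vesicles, including those carrying the amyloid precursor protein. Its 57-base exon, which adds 19 residues, had 2, 3 and 2 skipping reads in set 1 beside 581, 487 and 469 inclusion reads. In set 2 it had 22, 17 and 24 skipping reads beside 663, 461 and 445. The level was 0.995, 0.992 and 0.994 in set 1 and 0.956, 0.952 and 0.931 in set 2, with no overlap. The means were 0.994 ± 0.00189 and 0.946 ± 0.0135 (SD, n = 3 libraries each; quasi-binomial adjusted p = 0.00393). Without each library in turn its adjusted p was 0.00357 to 0.0436 in that test, but limma gave an adjusted p of 0.157. Its own spread, 0.833, was below the moderated one, 2.13. The form that uses an event's own spread where it is larger therefore left its unadjusted p as it was. The adjusted p of 0.0498 in that form reflects only the changed p of other events. The change is below 0.10, so Clstn1 is not among the calls counted with that minimum. A further Clstn1 exon, of 30 bases (chr4:149626087-149626116), was mostly skipped, with levels of 0.177, 0.176 and 0.144 in set 1 and 0.135, 0.137 and 0.112 in set 2.

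Fbxw11 had the larger difference of the 2 events called with a change of 0.10 or more. It encodes beta-TrCP2, the substrate-binding subunit of an SCF ubiquitin ligase that marks beta-catenin and IkappaB for degradation. Its 63-base exon had 65, 27 and 0 skipping reads in set 1, beside 90, 108 and 105 inclusion reads. In set 2 it had 116, 123 and 112 skipping reads beside 79, 127 and 112. The levels were 0.494, 0.739 and 1 in set 1 and 0.325, 0.422 and 0.414 in set 2. All of set 1 lay above set 2, but the libraries of set 1 covered a wide range. The means were 0.744 ± 0.253 and 0.387 ± 0.0539 (SD, n = 3 libraries each; quasi-binomial adjusted p = 0.0018). The call depended on library 3 of set 1, without which the adjusted p was 0.36, and on library 2 of set 1, without which it was 0.0503. With the event's own spread it was 1 and in limma 0.842.

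Mprip encodes a protein that brings myosin phosphatase to actin filaments. Its 66-base exon (chr11:59772152-59772217), annotated as partly coding, had levels of 0.905, 0.882 and 0.879 in set 1 and 0.815, 0.82 and 0.712 in set 2. The libraries did not overlap, and library 3 of set 2 was the lowest. The means were 0.889 ± 0.0143 and 0.782 ± 0.0612 (SD, n = 3 libraries each; quasi-binomial adjusted p = 0.0217). The adjusted p was 0.327 without library 3 of set 2, 0.163 without library 1 of set 1 and 0.0733 without library 2 of set 1. It was 1 with the event's own spread and 0.701 in limma.

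The 3 other events called with no minimum change rested on small shares or on few libraries. A 45-base exon of Actg1, which encodes gamma-actin, was included at a mean level of 0.00116 in set 1 and 0.0027 in set 2. It had a mean of 22845 reads, and reads of actin genes can be shared with near-identical copies. Its quasi-binomial adjusted p was 0.235 without library 1 of set 2. A 78-base exon of Xlr, a member of an X-linked multigene family, had 33 skipping reads in library 1 of set 1 and none in the other 5 libraries. In set 2 the 317 reads held no skipping read, so the true share can be up to 0.946% for counting error only. A 102-base exon of Arfip1, which encodes the Arf-binding protein arfaptin 1, had 15, 8 and 0 skipping reads in set 1 and none among 524 reads in set 2 (a share of up to 0.573%). Xlr and Arfip1 could not be tested without library 1 of set 1. Among frame-keeping exons, 12 events had a form with no read in 1 library and 10 or more reads in each of the others. The reverse, a form with 10 or more reads in 1 library and none in the others, also occurred in 12.

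Among exons whose libraries did not overlap, with 1 event per gene, the best covered one, the 10 largest excesses in set 1 ran from 0.227 to 0.357. An event of Hpf1 with fewer reads, given further on, lay at 0.361. After Fbxw11 came Ccl25, a chemokine gene, whose 123-base exon had levels of 1, 0.873 and 0.92 in set 1 and 0.586, 0.767 and 0.524 in set 2. Dcp1a, which encodes an activator of mRNA decapping, had a 114-base exon at 1, 0.946 and 0.926 against 0.607, 0.711 and 0.82. Both had mean counts under 40, with 0 to 2 skipping reads per library of set 1. The 90-base exon of Git2, a GTPase-activating protein for Arf that works at focal adhesions and endosomes, stood at 0.669, 0.803 and 0.708 against 0.47, 0.511 and 0.487. The 69-base exon of St7 stood at 0.74, 0.557 and 0.625 against 0.488, 0.338 and 0.387. The gap between the nearest libraries of the sets was wider than the range within each set in Git2, but not in St7. The other genes were Gm15418, Gypc, Eva1c, Prune2 and the noncoding Platr20. Gypc, which encodes a membrane skeleton anchor of red cells, had no skipping read among 47 in set 1, so the true share can be up to 6.38%. In the quasi-binomial test the adjusted p of these genes other than Fbxw11 was 0.221 to 0.577.

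By the same rule, the 10 largest deficits in set 1 ran from 0.142 to 0.341. The largest was a 183-base exon of Gm8206 at 0.215, 0.222 and 0.355 against 0.588, 0.579 and 0.647, whose reads can belong to near-identical copies. A 264-base exon of Usf3, annotated in noncoding transcripts, stood at 0.6, 0.478 and 0.59 against 0.9, 0.824 and 0.871. The 33-base exon of Ubr4, a very large ubiquitin ligase of the N-degron pathway, stood at 0.358, 0.167 and 0.219 against 0.432, 0.416 and 0.463. A 147-base exon of Tnrc6a, which encodes the microRNA silencing partner GW182, stood at 0.308, 0.252 and 0.189 against 0.397, 0.363 and 0.416. Library 1 of set 1 was the nearest to set 2 in both Ubr4 and Tnrc6a. The others were Mpdz, whose difference of -0.222 was -0.0964 without library 1 of set 2, Pld3, the GTPase regulators Arhgap17 and Arhgef11, the G protein regulator Rgs7 and Arfgap1. The quasi-binomial adjusted p of the 10 genes was 0.113 to 0.819.

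**Figure D4:**
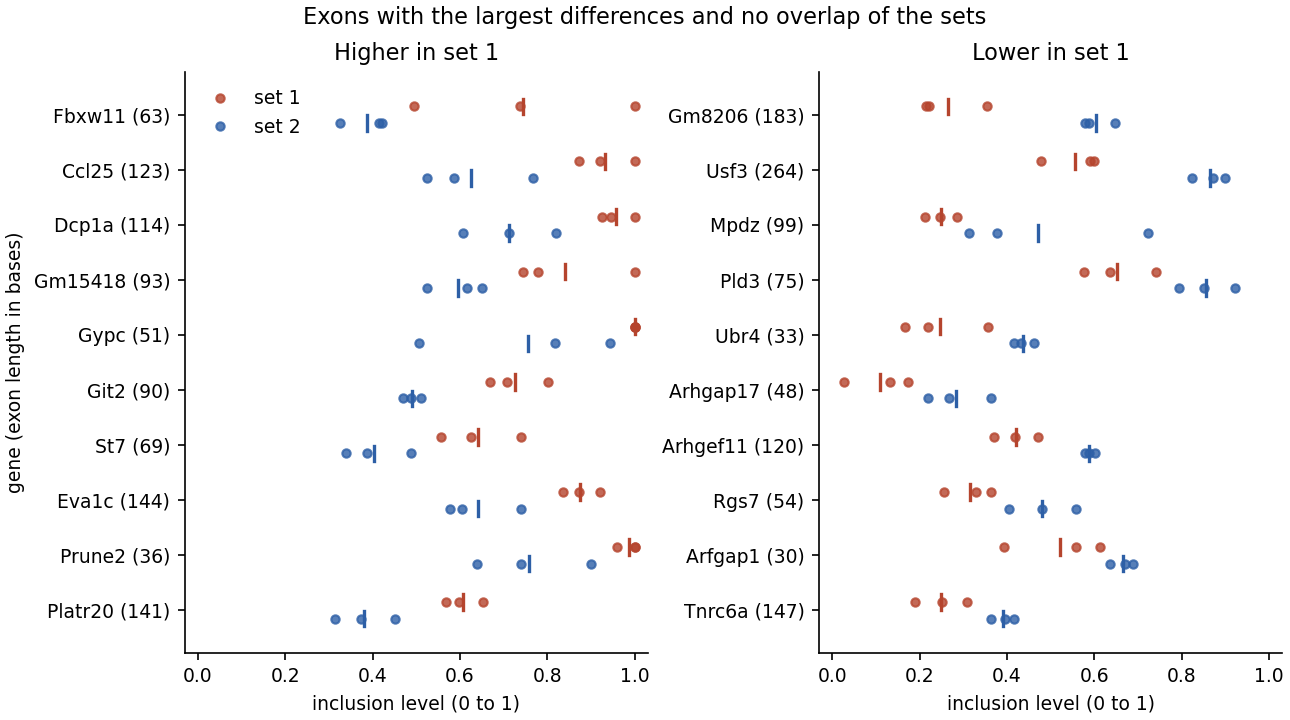
Inclusion level in each library (x axis, 0 to 1) of the 10 frame-keeping exons furthest above (left) and the 10 furthest below (right) in set 1 among exons whose sets do not overlap, with 1 best covered event per gene and exon lengths in bases. Dots are libraries and short vertical lines are means of 3. In Fbxw11 the 3 libraries of set 1 spread from 0.494 to 1, while in Git2 both sets are tight.

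The exons were then grouped by the function of their genes. The lists favour genes known for cassette exons, so their shares of intermediate exons, from 11.9% to 30.3%, beside 13.8% of all frame-keeping exons, describe that choice. They were also chosen with earlier results of these data known. Their shares of calls, here and in the lists that follow, therefore cannot show an excess over all frame-keeping events. No member of the 8 lists passed the quasi-binomial test. The cytoskeleton list had 156 exons with the mean count, 41 of them intermediate, and 91 tested events with a median difference of 0.00691. In the authors' deposited table, 6 of its 177 events with the mean count were called (3.39%, beside 0.485% of all frame-keeping events with that count), all 6 higher in set 1. They lay in Myo18a, Cttn, Epb41l2 and Ank3. Of these, 3 events are in Epb41l2 and share an exon or skipping reads, so they are not separate calls.

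Myo18a encodes an unconventional myosin that binds the Golgi membrane and actin, and its 45-base exon stood at 0.766, 0.695 and 0.816 in set 1 and 0.533, 0.534 and 0.533 in set 2. Cttn encodes cortactin, which binds branched actin, and its 111-base exon stood at 0.826, 0.892 and 0.826 against 0.753, 0.732 and 0.732. The sets did not overlap in either exon, and set 2 was tighter than set 1. Epb41l2, of a family that ties spectrin and actin to the membrane, had a 54-base exon at 0.378, 0.324 and 0.394 against 0.152, 0.193 and 0.146. Its 147-base exon (chr10:25495445-25495591) was listed with different neighbours, once at 0.458, 0.451 and 0.459 against 0.239, 0.187 and 0.387, and once with overlap of the sets. The first of these events had the same skipping reads as the 54-base exon, 40, 40 and 25 in set 1 and 95, 68 and 56 in set 2. The rises of the 54-base and 147-base exons are therefore not separate. The Ank3 exon of 54 bases (chr10:69920438-69920491), in the gene of ankyrin G, was included at 0.134, 0.132 and 0.0878 against 0.0276, 0 and 0. The quasi-binomial adjusted p was 0.207 for Myo18a, 0.188 for Cttn, 0.224 for the 54-base Epb41l2 exon and 0.746 for Ank3. In the exons of this list with most reads of the rarer form the sets overlapped: Dync1i2, a dynein intermediate chain gene, had a 60-base exon at 0.441, 0.347 and 0.304 against 0.502, 0.518 and 0.426, and the others were those of Ktn1, Epb41l3 and Sptan1.

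Of 89 exons of the neural list, 27 were intermediate, and 2 of its 109 events were called in the authors' deposited table (1.83%, beside the same 0.485%), both higher in set 1. Numb encodes an endocytic adaptor that restrains Notch, and its 33-base exon stood at 0.306, 0.432 and 0.391 in set 1 and 0.168, 0.158 and 0.171 in set 2 (quasi-binomial adjusted p = 0.31). The 147-base exon of Numb (chr12:83797197-83797343) stood at 0.194, 0.14 and 0.193 against 0.281, 0.171 and 0.112, with overlap. Mapt encodes the microtubule-binding protein tau. Its 87-base exon at chr11:104287123-104287209 had levels of 1, 0.728 and 0.801 against 0.62, 0.622 and 0.662 with one set of neighbours, and 0.327, 0.451 and 0.481 against 0.302, 0.344 and 0.262 with another (quasi-binomial adjusted p = 0.119 and 0.788). In the first of these, library 1 of set 1 had 0 skipping reads of 116, and library 3 of that set had 12 of 88.

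Further Mapt exons had no call in the authors' deposited table. The 66-base exon at chr11:104294859-104294924 lay lower in set 1 with one set of neighbours, at 0.556, 0.436 and 0.514 against 0.571, 0.634 and 0.616, without overlap (quasi-binomial adjusted p = 0.917). With other neighbours it stood at 1, 0.672 and 0.782 against 0.739, 0.733 and 0.808, with overlap. The 93-base exon at chr11:104318157-104318249, known as the exon that adds a microtubule-binding repeat, stood at 0.521, 0.57 and 0.462 in set 1 and 0.58, 0.491 and 0.448 in set 2. The 87-base exon at chr11:104289908-104289994 stood at 0.825, 0.835 and 0.875 against 0.773, 0.799 and 0.803 with one set of neighbours, without overlap. With another it stood at 0.441, 0.458 and 0.516 against 0.396, 0.454 and 0.402, with overlap. The 198-base exon at chr11:104305212-104305409 was mostly skipped, at 0.0802, 0.152 and 0.167 against 0.179, 0.159 and 0.106. Aplp2, a paralogue of the amyloid precursor protein gene, had a 168-base exon at 0.552, 0.509 and 0.462 against 0.589, 0.581 and 0.526. The 63-base exon of Csnk1d, a clock and cell cycle kinase gene, stood at 0.644, 0.671 and 0.66 against 0.583, 0.578 and 0.549, with no overlap and a quasi-binomial adjusted p of 0.476. The exons of Kif1b and Bin1 overlapped.

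In endocytosis and vesicle traffic, 22 of 95 exons were intermediate. The authors' deposited table called 3 of 111 events (2.7%, beside the same 0.485%), 2 higher (Git2 and Numb) and 1 lower (Synj1). Synj1 encodes synaptojanin 1, a phosphoinositide phosphatase, and its 39-base exon was at 0.0538, 0.0428 and 0.0599 in set 1 and 0.173, 0.309 and 0.0435 in set 2, so library 3 of set 2 lay within set 1. The exons with most rarer reads, in Reps1, Dnm1l and Exoc7, overlapped, and the 33-base exon of Dnm1l, the mitochondrial fission dynamin gene, had means of 0.566 ± 0.0725 and 0.564 ± 0.0819 (SD, n = 3 libraries each).

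The list of kinases and GTPase regulators had 107 exons, 29 of them intermediate. It had 1 call in the authors' deposited table (Git2) among 117 events (0.855%, beside the same 0.485%). A 33-base exon of Ppfibp1, which encodes liprin beta 1, stood at 0.414, 0.484 and 0.447 against 0.367, 0.35 and 0.338, without overlap (quasi-binomial adjusted p = 0.659). In adhesion and surface receptors, 5 of 42 exons were intermediate and none was called in the authors' deposited table. The 33-base exon of Cadm1, a synaptic adhesion gene, stood at 0.314, 0.222 and 0.21 against 0.382, 0.354 and 0.316 (quasi-binomial adjusted p = 0.536). The highest library of set 1 in Cadm1 fell just short of the lowest of set 2.

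Chromatin and transcription regulators had 29 intermediate exons of 102 and no call in the authors' deposited table. The 60-base exon of the histone demethylase gene Kdm1a stood at 0.548, 0.553 and 0.598 against 0.53, 0.522 and 0.523, and the 102-base exon of the histone methyltransferase gene Ehmt2 at 0.461, 0.441 and 0.405 against 0.47, 0.413 and 0.321. Kdm1a did not overlap and Ehmt2 did. DNA repair and cell cycle genes had 9 intermediate exons of 39. The authors' deposited table held a call in each direction among 46 events (4.35%, beside the same 0.485%). The higher one was the 99-base exon of Hpf1 (chr8:60896738-60896836), a PARP1 cofactor gene, in an event with a mean count of 23 and levels of 0.463, 0.555 and 0.401 against 0.167, 0.0363 and 0.131. With its best covered neighbours, on a mean of 388 reads, the same exon stood at 0.792, 0.814 and 0.817 against 0.772, 0.799 and 0.756, with overlap. The lower one was the Ubr4 exon, and a 105-base exon of Ubr4 (chr4:139441192-139441296) stood at 0.647, 0.552 and 0.597 against 0.644, 0.672 and 0.573.

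RNA-binding proteins gave no call in the authors' deposited table, with 26 intermediate exons of 129 and 71 tested events with a median difference of 0.0015. Exons of Hnrnpdl, the targeted gene, were read in all 6 libraries. The kind of knockout is not in the labels, so these reads check no label. Its 171-base tyrosine-rich exon was included at 0.984, 0.993 and 0.997 in set 1 and 0.98, 0.986 and 0.986 in set 2. Its 132-base exon (chr5:100037085-100037216) had no skipping read among 5580 in set 1, so the true share can be up to 0.0538%. Its 105-base exon, annotated as UTR, was included at 0.415, 0.367 and 0.477 against 0.496, 0.394 and 0.446.

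The tyrosine-rich exons thus stood at 3 different levels in the paralogues. The 147-base exon of Hnrnpd stood at 0.559, 0.527 and 0.57 in set 1 and 0.558, 0.551 and 0.551 in set 2, from a mean of 1830 reads. The 141-base exon of Hnrnpab stood at 0.29, 0.33 and 0.313 against 0.282, 0.3 and 0.251, on a mean of 6952 reads. The sets overlapped in all of these exons, with quasi-binomial adjusted p of 0.999 for Hnrnpd, 0.748 for Hnrnpab and 0.805 for Hnrnpdl. The 57-base exon of Hnrnpd (chr5:99976534-99976590), which adds 19 residues near the RNA recognition motifs, stood at 0.597, 0.577 and 0.575 against 0.599, 0.627 and 0.586. The Hnrnpa1 exon of 159 bases stood at 0.126 ± 0.013 and 0.13 ± 0.0182, that of Hnrnpa2b1 of 120 bases at 0.734 ± 0.069 and 0.76 ± 0.0477, and that of Pcbp2 of 93 bases at 0.519 ± 0.0109 and 0.484 ± 0.0417 (SD, n = 3 libraries each).

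**Figure D5:**
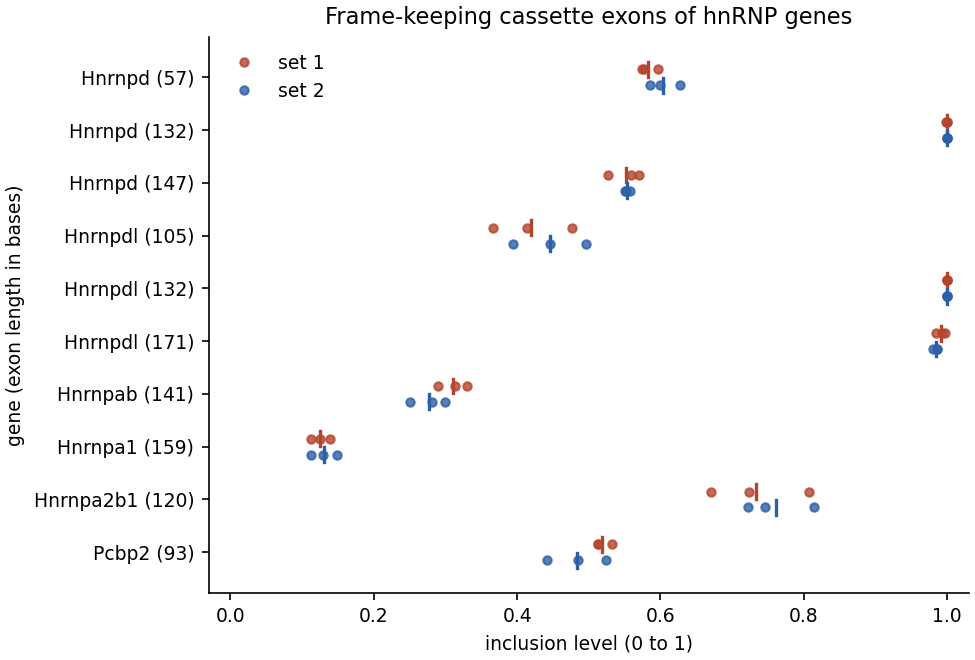
Inclusion level in each library (x axis, 0 to 1) of 10 frame-keeping cassette exons in 6 hnRNP genes, with exon lengths in bases. Dots are libraries and short vertical lines are means of 3, and the sets overlap in each exon shown, from about 0.126 in Hnrnpa1 to 1 in the 132-base exons.

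Other exons called in the authors' deposited table, chosen after their values were seen from the better covered calls, were of the same kind. Their mean counts ran from 73.2 to 216 reads per library, beside a median of 125 over all frame-keeping events. Spag9 encodes JIP4, a scaffold for kinases and motor proteins, and its 39-base exon stood at 0.744, 0.802 and 0.753 in set 1 and 0.515, 0.63 and 0.65 in set 2. A 33-base exon of Eif4g3, a translation initiation scaffold gene, stood at 0.31, 0.322 and 0.362 against 0.263, 0.183 and 0.227. The 42-base exon of Emsy, a BRCA2 partner gene, stood at 0.516, 0.429 and 0.462 against 0.276, 0.315 and 0.222. Lower in set 1 was the 111-base exon of Nbr1, an autophagy receptor gene, at 0.618, 0.581 and 0.548 against 0.738, 0.702 and 0.704. The 33-base exon of Agfg2 was lower as well, at 0.843, 0.777 and 0.825 against 0.937, 0.952 and 0.887. An 84-base exon of Sh3pxd2a, an invadopodium scaffold gene, was higher in set 1, at 0.615, 0.672 and 0.562 against 0.499, 0.464 and 0.35. The 144-base exon of Asxl2, a Polycomb-related gene, stood at 1, 0.874 and 0.929 against 0.899, 0.715 and 0.605. The sets overlapped in Asxl2 and not in the 6 others, and the quasi-binomial adjusted p was 0.188 to 0.563.

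The UUAG tetramer was searched for in the exons as TTAG on the sense strand, with CTAA, its reverse complement, as the other strand. TTAG was in 16.0% of the 9657 frame-keeping exons with a sequence and in 17.1% of frame-shifting exons. CTAA was in 20.6% and 21.3%. Longer frame-keeping exons held TTAG more often, from 8.94% at 28 to 60 bases to 26.7% at 201 to 300. It was in 5 of 37 exons called higher in the authors' deposited table (13.5%, median length 87 bases) and in 5 of 15 called lower (33.3%, median length 138 bases). CTAA was in 8 of the 37 (21.6%) and in 6 of the 15 (40%), so both tetramers were more frequent in the exons called lower. Of the exons printed first above, only that of St7 holds TTAG, near its start. CTAA is in those of St7, Ubr4 and Spag9. Introns, where most regulatory sites lie, were not used here.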

How the data were processed

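Per the file headers, the deposited table follows the rMATS layout, with other kinds of value side by side for 6 libraries: whole-number junction read counts, form lengths, inclusion levels as a fraction, p-values, adjusted p and level differences, all made by the authors. The submitters' processing notes name the build mm10 and HISAT2 2.1.0, Bowtie2 2.2.3 and HTSeq 0.6.0. For the splicing tool, a version and an annotation were not given in the sources used.

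Levels recomputed from the deposited counts and form lengths differed from the authors' by at most 0.0005. The quasi-binomial test (R 4.3.3, limma 3.58.1) fitted 1 share of inclusion reads per set to every event that averaged at least 20 reads per library and had 10 or more of the rarer form. Dispersion was moderated along the rarer count within each kind of event and never set below 1, with Benjamini-Hochberg adjustment over all 17654 events. Counts were simulated for this comparison. Changes were placed only in skipped exons with a middling share of inclusion reads, taken before scaling by form length. Changes of that share by 0.1, 0.2, 0.3 and 0.4 were recovered in 3, 20, 41 and 46 of 50. There were 9 false calls among 17454 unchanged events, of which 5.71% had an unadjusted p under 0.05. A robust prior was tried after the data were seen and not kept, and the sign-flip test of the frame classes was added then. Exon annotation and sequence came from GENCODE vM21, and coordinates are 1-based. Upper limits for a count of 0 are 3 reads of the total and cover counting error only, since reads are not independent molecules.

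The exons, gene lists and rules were chosen with earlier results of these data known. Named exons are the 10 largest rises and falls without overlap of the sets, the 6 smallest p, up to 4 genes per list by reads of the rarer form, and exons of Hnrnpdl, Hnrnpd and Hnrnpab. Called list members, further exons of known cassette genes (those of Mapt, Numb and Clstn1) and some of the better covered calls were added after their values were seen. Alternatives were other filters, another prior, limma on logit levels held between 0.01 and 0.99, stricter thresholds, 1 event per exon and leaving out each library.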

Additional observations from a re-analysis of the deposited data

How the results depend on the processing

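No paired analysis was possible because the table's columns carry no replicate numbers and no genotype. The 2 frame-keeping events called by the quasi-binomial test became 0 with 30 reads of the rarer form, with limma on logit levels and, in a form added after the data were seen, with the event's own spread, and 6 with no minimum difference. Leaving out each library in turn gave 2 to 7 calls, 7 without library 1 of set 1 and 5 without library 3 of set 1 or library 1 of set 2. The cause was not tested. The planned count-model alternatives were not run, since the table's counts sit as lists within cells. The 95 calls of the authors' deposited table became 48 with an adjusted p under 0.01, 54 with a difference of 0.20 and 53 with a mean count of 20, and in the last 71.7% were higher in set 1, beside 64.2% of the 95 and 60.9% with 1 event per exon. Of those 53, all kept their direction without each library in turn, and 35 also kept a difference of 0.10 throughout. The difference of the sets in median level was 0.00178 to 0.00397 and kept its sign in all settings run, and so did that in the share of intermediate exons, between -0.28 and -0.89 percentage points. The gap of 4.63 points between the frame classes was 4.59 to 4.66 without each library in turn, where 5 libraries cannot give an exact p below 0.0625, and 4.50 to 4.94 in the other settings. Of 658 values of 94 named events under alternatives, none changed sign in a called event, and 656 moved by less than the larger SD of the sets. Leaving out 1 of 3 libraries cannot move a mean by that much, so for those values the count tests nothing. Only the share of reads not scaled by form length could have moved further. The size of a change limits what could be found: a change of 0.1 in the share of inclusion reads was recovered in 3 of 50 simulated exons with a middling share. Changes in exons near full inclusion, where most frame-keeping exons lie, were not simulated.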
